A study of Homo sapiens with 7 samples.

Results

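A set of 10 genes of the long arm of chromosome 3, on both sides of SOX2 and before TP63, is described here. It is described by its RNA level in 2 lines of esophageal squamous cell carcinoma (ESCC) and by its change upon silencing of TP63, SOX2 or CCAT1. The 10 genes are PRKCI, ECT2, PIK3CA, ACTL6A, FXR1, ATP11B, DCUN1D1, ABCC5, EIF4G1 and SENP2, given in the order of the chromosome. They were chosen by name for their place in the bands 3q26 to 3q28, out of 56234 genes with a transcript in the RNA-Seq data. All 10 were detected in all 7 libraries, and all 10 passed the filter on low counts.

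The libraries came from TE5 cells with a scramble control, TP63 (shTP63), SOX2 (shSOX2) or CCAT1 (shCCAT1) shRNA (4 libraries) and from KYSE140 cells with a scramble control, TP63 or SOX2 shRNA (3 libraries). Both are established human ESCC lines, the shRNAs were delivered by lentivirus in a pLKO.1 vector, and the scramble control targets no gene. There was 1 library for each condition and line and 1 shRNA for each targeted gene, so no condition had a replicate within a line. The shRNA label of the TP63 libraries does not say which TP63 isoforms it targets.

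High-level gain of the distal long arm of chromosome 3 is a recurrent lesion of squamous cancers of the lung, esophagus, and head and neck. It raises the copy number of SOX2, TP63 and many neighbouring genes together, and several of the neighbours, such as PIK3CA, PRKCI and ECT2, have been studied as oncogenes of their own. DNA copy number was not analysed here.

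The estimated counts summed to between 68532611 and 98036494 per library. TP63, the master transcription factor of squamous epithelium, was at 25.2% of its scramble level in TE5 shTP63 and at 25.98% in KYSE140 shTP63, in normalized counts. SOX2 was at 39.6% in TE5 shSOX2 but at 76.9% in KYSE140 shSOX2, so SOX2 was reduced less in KYSE140. The level of CCAT1 was not analysed here. The 7 squamous markers KRT5, KRT14, KRT6A, PKP1, DSG3, TP63 and SOX2 summed to 457 to 1281 TPM (a level per transcript length, scaled to the same total in every library) in TE5 and to 8614 to 18398 TPM in KYSE140, and KRT14 was below 1 TPM in every TE5 library. Of 6 markers of leukocytes, fibroblasts or intestinal epithelium, 4 were below 1 TPM in every TE5 library and 5 in every KYSE140 library. COL1A1 reached 44.4 TPM. The intestinal marker CDX2 reached 12.1 TPM in TE5 and stayed below 1 TPM in every KYSE140 library. According to the sample descriptions, the libraries ran in 4 lanes of 2 flow cells, and 0 lanes held libraries of both lines. Line and lane therefore cannot be told apart, and neither can a change shared by all silenced libraries of a line and their lane, because each scramble library ran in another lane than the silenced ones.

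The positions of the 10 genes on chromosome 3 (hg19, from the GENCODE annotation) run from 169940212 to 185351339. PRKCI (ENSG00000163558), an atypical protein kinase C of the cell polarity complex, comes first and is followed by ECT2 (ENSG00000114346, start 172468472), the exchange factor that activates RhoA at the site of cytokinesis. PIK3CA (ENSG00000121879, start 178865902), a catalytic subunit of PI3-kinase, and ACTL6A (ENSG00000136518, start 179280674), an actin-like subunit of the BAF chromatin remodelling complex, lie closer to SOX2.

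FXR1 (ENSG00000114416, 180585929 to 180700541), an RNA-binding protein of the FMR1 family, lies just before SOX2 (181429713 to 181432224). ATP11B (ENSG00000058063, 182511291 to 182639417), a phospholipid flippase, and DCUN1D1 (ENSG00000043093, 182655862 to 182703741), which promotes the attachment of NEDD8 to cullins, lie just after it. ABCC5 (ENSG00000114770, start 183637722) is an exporter of cyclic nucleotides and drugs, EIF4G1 (ENSG00000114867, start 184032283) is the scaffold of the translation initiation complex eIF4F, and SENP2 (ENSG00000163904, start 185300284) is a protease that removes SUMO from proteins. TP63 closes the region at 189349178 to 189615065.

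Promoter windows of RefSeq (build GRCh38.p14, 250 bases before to 50 after a start site) were at hand for 7 of the 10 genes, as 12 windows. ATP11B, ACTL6A and SENP2 had no entry. They were searched on both strands for the SOX core words ACAATG and ACAAAG and for the p53-family half-site, because SOX2 and TP63 are the silenced factors. ACAATG was held by 10.8% of all 35116 promoter windows of the same length, ACAAAG by 16.1% and the half-site by 6.63%. The stretches with a match follow, 5′ to 3′ on the strand of the gene, with the matched word or its reverse complement in capitals.

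PRKCI, ACAATG, chr3:170222174-170222203: tacCATTGTccctgcagggaagagacttta
PRKCI, ACAATG, chr3:170222208-170222237: tctagagctggtCATTGTctctttcacagc
FXR1, ACAAAG, chr3:180912420-180912449: aACAAAGgtcgggcgattgtgtctggaggc
DCUN1D1, ACAATG, chr3:182985954-182985983: gggacagtgggaCATTGTgacatcatcatt
DCUN1D1, half-site, chr3:182980560-182980589: agcgggagccGGGCAAGCCCgtgagaggag
ABCC5, ACAAAG, chr3:184017936-184017965: gccttgggaatgCTTTGTgcagcgcgcttg
ABCC5, half-site, chr3:184017888-184017917: gccgctataaAGGCTTGTTTtgctgcaggg

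The DCUN1D1 and ABCC5 windows are on the minus strand, and the matches of DCUN1D1 come from different start sites. The windows of ECT2, PIK3CA and EIF4G1 held no match to these letters. A match is a description of the letters and not of binding.

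The levels of the 10 genes were compared first, within each line and per transcript length. In TE5 the order by median TPM over 4 libraries was EIF4G1 (438), FXR1 (267), ACTL6A (222), ECT2 (157), ABCC5 (120.4), ATP11B (99.2), PRKCI (50.8), SENP2 (47.0), DCUN1D1 (46.1) and PIK3CA (35.7). The ranges over libraries overlapped between neighbours in this order from ECT2 to ATP11B and from PRKCI to PIK3CA, so those orders did not exceed the spread. In KYSE140 the order over 3 libraries was FXR1 (1078), ATP11B (316), DCUN1D1 (183), ECT2 (169), ACTL6A (167), EIF4G1 (149), PRKCI (96.8), ABCC5 (51.2), PIK3CA (24.0) and SENP2 (19.7). The ranges overlapped from DCUN1D1 to EIF4G1 and between PIK3CA and SENP2. FXR1 was the most abundant of the 10 genes in KYSE140 and EIF4G1 in TE5, in each case without overlap with the next gene.

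**Figure D1:**
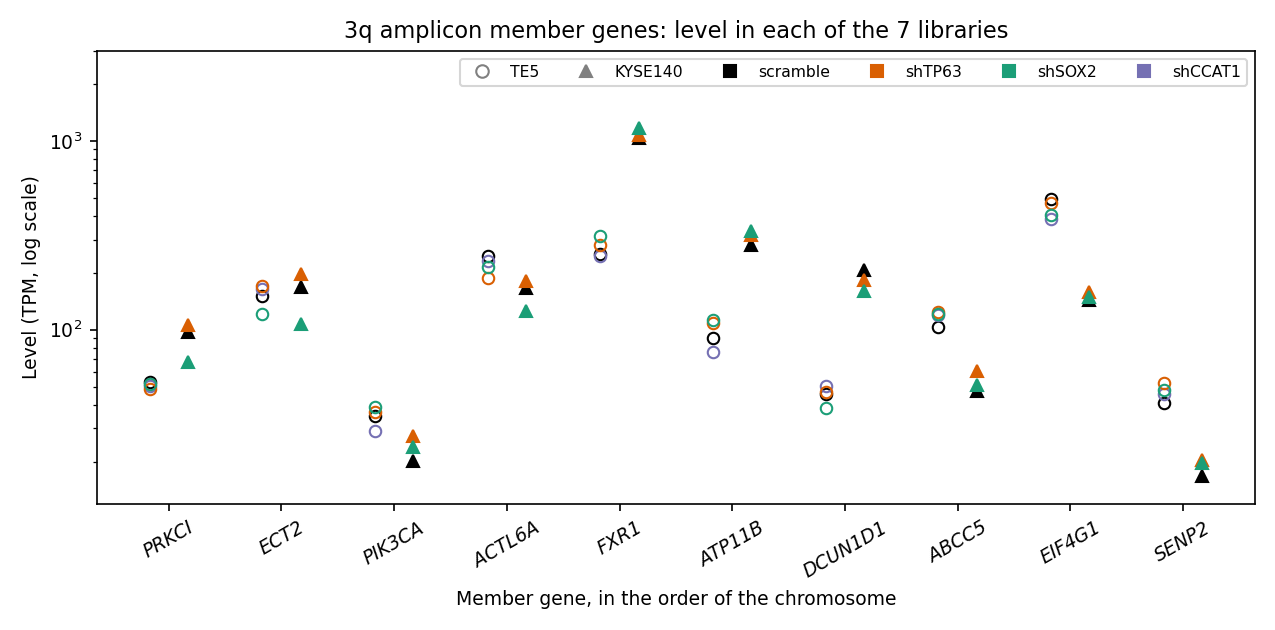
Level of each of the 10 genes in TPM (log scale) in the 7 libraries, with open circles for TE5, filled triangles for KYSE140 and colours for the shRNA. The 3 KYSE140 libraries lay above all TE5 libraries for PRKCI, FXR1, ATP11B and DCUN1D1, below them for PIK3CA, ACTL6A, ABCC5, EIF4G1 and SENP2, and among them for ECT2.

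The TPM ranges of the lines did not overlap for 9 of the 10 genes, against 53.3% of 27274 genes, the exception being ECT2. In edgeR's quasi-likelihood test over 6 libraries (scramble, shTP63 and shSOX2 of each line, Benjamini-Hochberg adjusted p under 0.1), 4 of the 10 genes were higher in KYSE140 and 4 were lower. Of all 23438 genes tested, 31.8% were higher and 34.3% lower, 66.1% in all, so the 8 calls of 10 were close to the background. Of the 10 genes, 4 were higher past 2-fold, against 19.6% of all genes. Only 1 was lower past 2-fold, against 24.0%. Of the 7619 genes with at least 1000 counts in the 6 libraries, a limit chosen after the data were seen, 72.1% were called, 15.8% were higher past 2-fold and 8.22% lower past 2-fold. The 3 libraries of a line carry different shRNAs and stand in for replicates in this test. Since shRNA is a term of the fit, its p-values measure how far the line difference varied between the shRNAs. They do not measure the spread between replicate cultures.

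The 3 genes nearest to SOX2 differed most. FXR1 was at 1036, 1078 and 1164 TPM in KYSE140 with scramble, shTP63 and shSOX2, and at 252, 283, 315 and 247 TPM in TE5 with scramble, shTP63, shSOX2 and shCCAT1. All KYSE140 libraries were thus far above all TE5 libraries. The fitted difference was 2.15 on the log2 scale (SE 0.11, adjusted p = 8.63e-06, edgeR), which is 4.45-fold.

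ATP11B was at 280, 316 and 334 TPM in KYSE140 and at 90.1, 108, 112 and 76.4 TPM in TE5, in the same order of shRNAs. The ranges were far apart, and the difference was the largest among the 10 genes, at 2.32 on the log2 scale (SE 0.11, adjusted p = 6.83e-06, edgeR), or 5.01-fold. DCUN1D1 was at 208, 183 and 161 TPM in KYSE140 and at 45.6, 46.6, 38.6 and 50.5 TPM in TE5. It was 4.30-fold higher in KYSE140 (log2 2.10, SE 0.12, adjusted p = 1.25e-05, edgeR). Differences past 4-fold upward were found in 8.98% of all genes and in 2.69% of the 7619 genes with at least 1000 counts.

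PRKCI was at 96.8, 106 and 67.7 TPM in KYSE140 and at 52.6, 48.8, 51.4 and 50.3 TPM in TE5. The lowest KYSE140 library, shSOX2, still exceeded every TE5 library. PRKCI was higher in KYSE140 by 1.09 on the log2 scale (SE 0.14, adjusted p = 0.000522, edgeR). The difference was 1.03 between the scramble libraries, 1.46 between the shTP63 libraries and 0.82 between the shSOX2 libraries, a wider spread than for FXR1 (2.14 to 2.19).

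ABCC5, EIF4G1 and SENP2, the next of the 10 genes after DCUN1D1, were lower in KYSE140. EIF4G1 was at 144, 159 and 149 TPM in KYSE140 and at 495, 471, 404 and 384 TPM in TE5, without overlap. It was 2.75-fold lower in KYSE140 (log2 -1.46, SE 0.13, adjusted p = 8.86e-05, edgeR), and the difference ran from -1.72 between the scramble libraries to -1.23 between the shSOX2 libraries. ABCC5 was at 47.5, 60.5 and 51.2 TPM in KYSE140 and at 103, 124, 121 and 119 TPM in TE5. This was a difference of -0.91 on the log2 scale (SE 0.11, adjusted p = 0.000326, edgeR). SENP2 was at 16.8, 20.5 and 19.7 TPM in KYSE140 and at 40.9, 52.5, 48.2 and 45.8 TPM in TE5, a difference of -0.97 (SE 0.12, adjusted p = 0.000372, edgeR).

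The 3 remaining genes differed little between lines. PIK3CA was at 20.1, 27.4 and 24.0 TPM in KYSE140 and at 35.0, 36.5, 38.9 and 29.1 TPM in TE5. In counts its difference was -0.27 on the log2 scale (SE 0.12) and passed the threshold narrowly (adjusted p = 0.0776, edgeR), and the call was lost when KYSE140 scramble, KYSE140 shSOX2, TE5 scramble or TE5 shSOX2 was left out (adjusted p = 0.241 to 0.436). ECT2 was at 169, 198 and 107 TPM in KYSE140 and at 150.02, 171, 122 and 164 TPM in TE5, which overlap (log2 0.18, SE 0.13, adjusted p = 0.289, edgeR). ACTL6A was at 167, 182 and 126 TPM in KYSE140 and at 246, 188, 213 and 231 TPM in TE5. Its TPM ranges did not overlap, but its difference in counts was -0.23 (SE 0.15, adjusted p = 0.226, edgeR). Without KYSE140 shTP63 or without TE5 shTP63 it passed, at -0.41 and -0.43 (adjusted p = 0.0251 and 0.0149).

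The targeted genes also differed between lines. SOX2 was at 191, 203 and 130 TPM in KYSE140 and at 89.6, 67.0, 34.9 and 85.4 TPM in TE5, a difference of 1.80 on the log2 scale (SE 0.18, adjusted p = 0.000155, edgeR) that includes the unequal silencing. TP63 was higher in KYSE140 by 0.90 (SE 0.11, adjusted p = 0.000343, edgeR). The squamous marker sum was higher in KYSE140 as well, and its part in the line difference of the 10 genes was not tested.

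FXR1 was higher in KYSE140 in its protein-coding and in its retained-intron transcripts. Its most abundant protein-coding transcript, FXR1-203, was at 223 to 265 TPM in KYSE140 and at 75.7 to 98.6 TPM in TE5. A retained-intron transcript, FXR1-209, was at 283 to 413 TPM in KYSE140 and at 71.1 to 104 TPM in TE5. Protein-coding transcripts held 42.6 to 51.4% of the FXR1 TPM, 49.4 to 57.8% of the PIK3CA TPM and 36.5 to 46.3% of the SENP2 TPM, but 90.9 to 98.7% of the DCUN1D1 TPM. With protein-coding transcripts alone, FXR1 was at 519, 499 and 496 TPM in KYSE140 with scramble, shTP63 and shSOX2 and at 130, 134, 144 and 125 TPM in TE5.

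For DCUN1D1 a short transcript held most of the TPM. DCUN1D1-204, of 970 bases, held 49.0 to 62.9% of the DCUN1D1 TPM, and DCUN1D1-201, of 7954 bases, held 24.9 to 38.3%. SENP2 is the gene whose level is least certain, since 2 further transcripts that lie between SENP2 transcripts in the files but lack an annotation match would raise its level 1.48 to 1.67 times. PIK3CA shared 19.5% of its 31-base words with KCNMB3, which overlaps it, and PRKCI shared 10.9% with its pseudogene PRKCIP1. The files do not say whether strand was used in the counting.

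The line differences were then laid out along the chromosome. From PRKCI to TP63 the annotation lists 105 protein-coding genes, of which 93 are neither one of the 10 genes nor SOX2 or TP63. Of these 93 neighbours, 79 were tested, and 16 were higher and 43 lower in KYSE140, 74.7% in all, against 31.8% higher and 34.3% lower of all genes. Their median difference was -0.40 on the log2 scale, against -0.067 over all genes tested. Over the 66 genes of the region with at least 1 TPM in every library, the median was -0.33, with 18.2% above 1 and 21.2% below -1. The median was 0.13 over all 11191 protein-coding genes at that level, with 18.4% above 1 and 12.4% below -1, and it was 0.27 over the 560 such genes on the rest of chromosome 3.

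**Figure D2:**
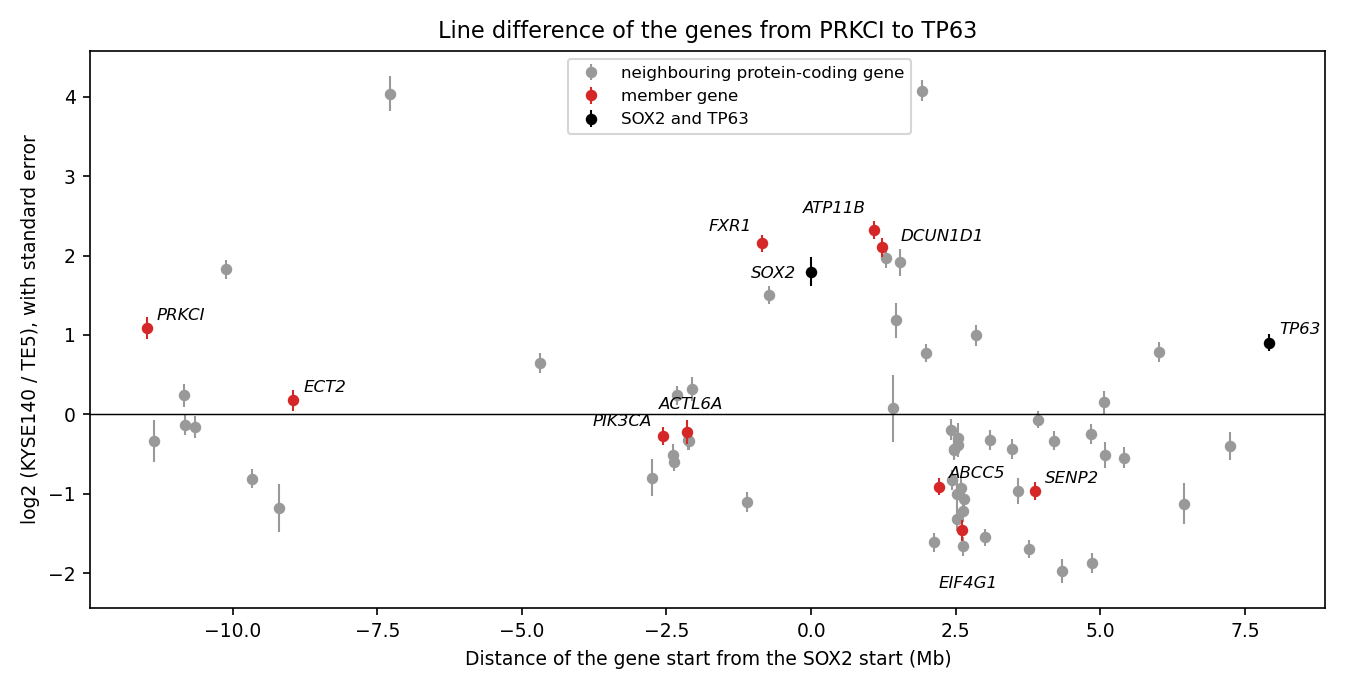
Difference between KYSE140 and TE5 (log2, with the standard error of the edgeR fit) of the 66 genes from PRKCI to TP63 with at least 1 TPM in every library, against the distance of each gene start from the SOX2 start in Mb. The 11 genes from FXR1 to YEATS2 all lay above 0, and 21 of the 22 genes from PARL to SENP2 lay below 0. Of all 11191 protein-coding genes at that level, 55.6% lay above 0.

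Along the chromosome the values changed sign between adjacent genes. The 11 genes from FXR1 to YEATS2, a stretch of 2.94 Mb, were all above 0, with a median of 1.91 on the log2 scale and 9 of them above 1. These include FXR1, DNAJC19 (1.503), SOX2, ATP11B, DCUN1D1, MCCC1 (1.97), B3GNT5 (1.91) and KLHL24 (4.08), while LAMP3 was at 0.079 (SE 0.42). The next gene at this level is PARL, a mitochondrial protease, and from PARL to SENP2, a stretch of 1.80 Mb with 22 genes, 21 were below 0 and 9 below -1, with a median of -0.94. ABCC5, EIF4G1 and SENP2 belong to it, and EPHB3 (0.99) was the exception. YEATS2, which starts at 183415585, differed by 0.77 (SE 0.11) and PARL, which starts at 183547059, by -1.61 (SE 0.12). The 21 genes from PRKCI to TTC14 had a median of -0.23, with 8 above 0, and the 12 genes from IGF2BP2 to TP63 had a median of -0.37, with 3 above 0. Of all 11191 protein-coding genes with at least 1 TPM in every library, 55.6% were above 0. The share was 63.75% of the 560 such genes on the rest of chromosome 3 and 34.8% of the 66 genes of the region. The limits of these stretches were set after the values had been seen, so no test was made on them.

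The neighbours with the largest differences were mostly genes with little RNA in 1 of the lines. LIPH, a phospholipase, was at 0.27 to 0.95 TPM in KYSE140 and at 20.6 to 78.7 TPM in TE5 (log2 -6.34, SE 0.20). RTP4 had 0, 3 and 0 estimated counts in KYSE140 and 433, 2931, 306 and 891 in TE5 with scramble, shTP63, shSOX2 and shCCAT1, and no fold is given. KCNMB3 (-6.20), the sialyltransferase gene ST6GAL1 (-5.69), MAP6D1 (-3.26) and ENSG00000283149 (-4.08), which overlaps DNAJB11, were also lower in KYSE140. HTR3E passed the test as well but was listed at 0.037 TPM in KYSE140 scramble and 0.14 TPM in TE5 scramble. KLHL24 (4.08, SE 0.13), NAALADL2 (4.04, SE 0.22) and KLHL6 (3.46, SE 0.40) were higher. In TPM, NAALADL2 was at 10.6 in KYSE140 scramble and 2.23 in TE5 scramble, less apart than the fit to counts gives. Among neighbours with at least 1 TPM in every library, PLD1 (1.83), a phospholipase D, also belonged to the 5 highest, and the 5 lowest were ETV5 (-1.97), DNAJB11 (-1.87), TMEM41A (-1.70), FAM131A (-1.66) and PARL.

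Genes that act with the 10 genes were examined in 10 lists of 98 genes in all. All but EIF4A2, which is also counted among the 93 neighbours, lie outside the region from PRKCI to TP63. Of the 98, 50 were higher and 22 lower in KYSE140, with a median of 0.31 on the log2 scale. This is 73.5% called, against 66.1% of all genes (31.8% higher and 34.3% lower), and counts of the short lists below are to be read against those shares. In the fit to counts, the 6 cytokinesis partners of ECT2 were all higher in KYSE140, by 0.35 (PLK1) to 1.07 (ANLN). ECT2 itself did not pass the test. In TPM, PLK1 was at 129 in KYSE140 scramble and 139 in TE5 scramble, while the other partners were higher in KYSE140 scramble. In the list around PIK3CA, 8 of 11 were higher and 1 lower. Around EIF4G1, 7 of 11 were higher and 3 lower, and the higher genes included the kinase MKNK2 (2.98, SE 0.15), the translation inhibitor EIF4EBP1 (2.88) and EIF4B (1.86), opposite to EIF4G1.

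In the list of phospholipid flippases, ATP11A (1.78) was higher like ATP11B, and 3 of 6 were lower, among them TMEM30A (-0.85) and TMEM30B (-1.34), which encode the partner subunits that flippases need to leave the endoplasmic reticulum. Of the 6 other ABCC transporters, 2 were lower, ABCC3 (-2.90) and ABCC6 (-1.34), and 0 were higher, so 33.3% were lower against 34.3% of all genes. Of the FMR1 family list, 1 of 4 was higher, FXR2 (0.84). The neddylation list around DCUN1D1 had 9 of 18 higher and 6 lower, the SUMO list around SENP2 had 4 of 11 higher and 3 lower, the chromatin remodelling list around ACTL6A had 10 of 17 higher and 2 lower, with SMARCD3 (2.01) among the higher, and the polarity list around PRKCI had 4 of 8 higher and 2 lower, with PARD6G at 2.62 and SQSTM1 at -2.28. ACTL6B (-1.78), the neuronal counterpart of ACTL6A, was below 1 TPM in both scramble libraries.

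Silencing of TP63 and of SOX2 was next compared with the scramble libraries, with both lines in 1 fit. For TP63, 0 of the 10 genes passed the test, against 220 of 23438 genes (0.939%) called, and 0 had an unadjusted p under 0.05, against 3366 of all genes. For SOX2, 0 of the 10 passed, against 34 of 23438 genes (0.145%), and 2 had an unadjusted p under 0.05, against 2095 of all genes. DESeq2 likewise called 0 of the 10 genes for either factor. TP63 itself fell by 1.95 on the log2 scale (SE 0.14, adjusted p = 0.0368, edgeR), while SOX2 was at -0.88 (SE 0.22, adjusted p = 0.302, edgeR) and did not pass. The test treats the lines as replicates and has 2 residual degrees of freedom.

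The values upon TP63 silencing ran from -0.23 (SE 0.18) for ACTL6A to 0.26 (SE 0.13) for ABCC5 and ATP11B, on the log2 scale. Upon SOX2 silencing they ran from -0.42 (SE 0.16, unadjusted p = 0.0356, adjusted p = 0.519, edgeR) for ECT2 to 0.39 (SE 0.13, unadjusted p = 0.0197, adjusted p = 0.454, edgeR) for ABCC5. PRKCI was at -0.37 (SE 0.17), FXR1 at 0.31 (SE 0.13), DCUN1D1 at -0.28 (SE 0.14) and SENP2 at 0.25 (SE 0.14) upon SOX2 silencing. PIK3CA was at 0.16 (SE 0.14) upon TP63 silencing and at 0.12 (SE 0.14) upon SOX2 silencing.

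Within each line, each silenced library was set against its scramble library, with no test since each group is 1 library. None of the 50 values of the 10 genes passed 1.5-fold. Of all genes, 24.8% were higher and 14.5% lower past 1.5-fold in TE5 shTP63, 13.3% and 11.7% in TE5 shSOX2, 19.9% and 12.2% in TE5 shCCAT1, 16.4% and 10.1% in KYSE140 shTP63, and 14.2% and 13.0% in KYSE140 shSOX2. These shares include genes with few counts. Among genes with at least 1000 counts in both libraries, as the 10 genes have, 20.0% passed 1.5-fold in either direction in TE5 shTP63, 6.80% in TE5 shSOX2, 6.14% in TE5 shCCAT1, 6.80% in KYSE140 shTP63 and 7.95% in KYSE140 shSOX2. The comparisons within a line share its scramble library, so their values are not independent.

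**Figure D3:**
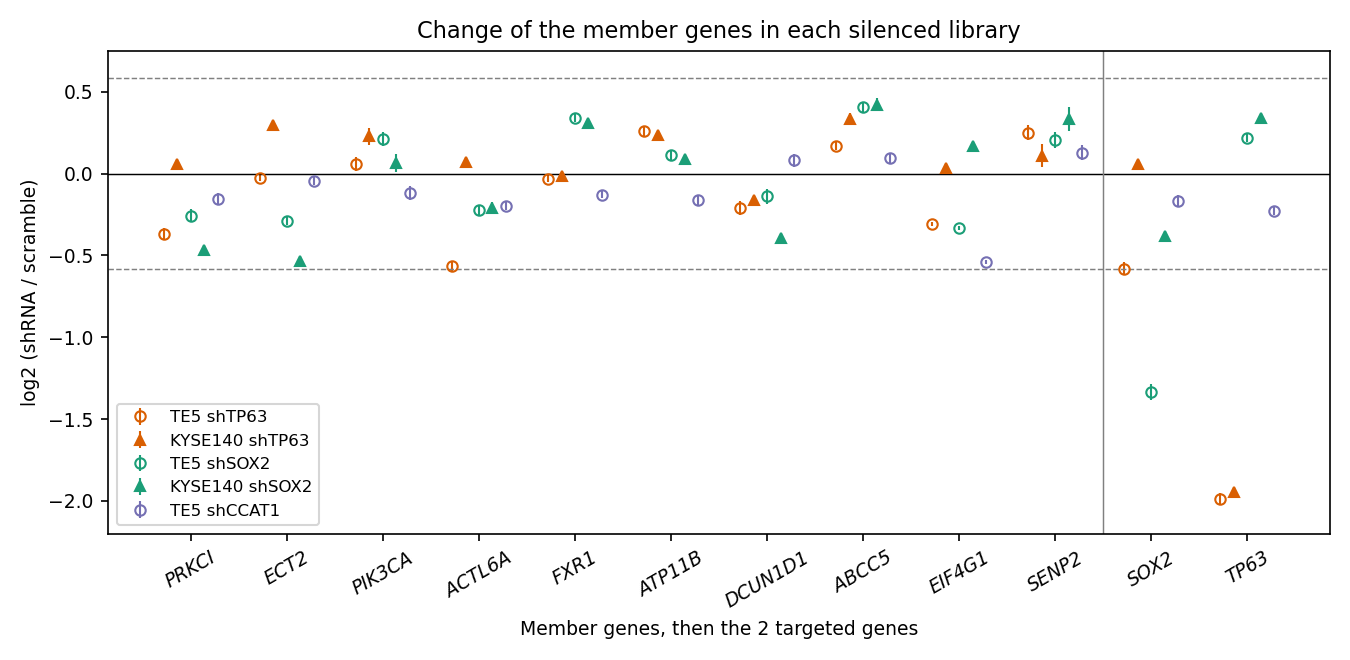
Change of the 10 genes, SOX2 and TP63 in each silenced library (log2 of shRNA over scramble, normalized counts), with open circles for TE5, triangles for KYSE140, bars for the 95% counting interval and dashed lines at 1.5-fold. All values of the 10 genes lay between the dashed lines, from -0.57 for ACTL6A in TE5 shTP63 to 0.42 for ABCC5 in KYSE140 shSOX2, while TP63 lay near -2 in both shTP63 libraries.

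In TE5 shTP63 the median of the 10 genes was -0.028 on the log2 scale, against 0.056 over all genes. Without scaling between libraries it was 0.12, against 0.21 over all genes. ACTL6A had 21896 normalized counts with scramble and 14777 with shTP63, 67.5% of scramble (log2 -0.57, 95% counting interval -0.60 to -0.54). This was the largest of the 50 values. PRKCI was at 77.5% and EIF4G1 at 80.8%, and ATP11B was at 119.7% (15371 and 18402 counts). SOX2 was at 66.8% of scramble in the same library. In KYSE140 shTP63 the median was 0.090, against 0.043 over all genes. There ACTL6A was at 104.9% of scramble (16300 and 17103 counts), ECT2 at 122.6% (32853 and 40267) and ABCC5 at 125.9% (11998 and 15109). The sign was the same in both lines for 6 of the 10 genes. ABCC5, ATP11B, PIK3CA and SENP2 were higher and FXR1 and DCUN1D1 lower. How many of all genes had the same sign in both lines was not determined.

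In TE5 shSOX2 the median was -0.013, against -0.0044 over all genes, and in KYSE140 shSOX2 it was 0.079, against 0.051. They turned to 0.058 in TE5 with length-scaled TPM counts and to -0.010 in KYSE140 without scaling, where that of all genes was -0.038. The sign was the same in both lines for 9 genes, all but EIF4G1. The share of all genes with the same sign in both lines was not determined, so this count is a description. ABCC5 had 23282 and 30806 counts in TE5 (132.3%) and 11998 and 16069 in KYSE140 (133.9%), the largest increases among the 50 values. FXR1 was at 126.6% in TE5 (27550 and 34892 counts) and at 123.7% in KYSE140 (124332 and 153831). In TPM of its protein-coding transcripts alone, FXR1 went from 130 to 144 in TE5 but from 519 to 496 in KYSE140. There FXR1-209 went from 27.6 to 35.5% of the FXR1 TPM. TPM does not carry the scaling factors of the normalized counts, so a fall in normalized counts is not shown. ECT2 was at 81.8% in TE5 (29274 and 23942 counts) and at 69.1% in KYSE140 (32853 and 22706). PRKCI was at 83.7% and 72.4%, ACTL6A at 85.7% and 86.4%, and DCUN1D1 at 90.8% and 76.2%. For ECT2, PRKCI and DCUN1D1 the change was thus larger in KYSE140, where SOX2 itself was reduced less. In TPM, PRKCI changed little in TE5 (52.6 and 51.4) and went from 96.8 to 67.7 in KYSE140. Whether the lines differ in these changes was not tested.

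In TE5 shCCAT1, where only 1 line was measured, the median was -0.12, against 0.022 over all genes. Of the 10 genes, 7 were below 0, against 11624 of all 24112 genes compared. The median was 0.048 without scaling between libraries, where that of all genes was 0.19. It was 0.0021 with protein-coding transcripts alone. EIF4G1 had 121989 counts with scramble and 84023 with shCCAT1, 68.9% (log2 -0.54, 95% counting interval -0.55 to -0.53). EIF4G1 was also at 80.8% in TE5 shTP63 and 79.5% in TE5 shSOX2, so all 3 silenced TE5 libraries were below the shared scramble library, which ran on another flow cell. In KYSE140 it was at 102.4% and 112.2%. ABCC5 was at 106.6% in TE5 shCCAT1 and SENP2 at 109.1%. Over the 5 comparisons, which share scramble libraries, SENP2 was at 107.9 to 125.8% in normalized counts. In TPM, SENP2 was at 16.8, 20.5 and 19.7 in KYSE140 scramble, shTP63 and shSOX2. Its protein-coding transcripts alone were at 7.76, 7.47 and 7.35 TPM in these libraries, so the direction turned within TPM. TPM does not carry the scaling factors of the normalized counts, so a turn in normalized counts is not shown.

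Of the 93 neighbours, 79 were tested. Upon TP63 silencing 2 of them passed (2.53%, against 0.939% of all genes), and upon SOX2 silencing 1 passed (1.27%, against 0.145%). LIPH rose upon TP63 silencing by 1.89 on the log2 scale (SE 0.22, adjusted p = 0.0634, edgeR) and RTP4 by 2.42 (SE 0.37, adjusted p = 0.0850, edgeR), although RTP4 had at most 3 counts in KYSE140. MFN1, a GTPase of mitochondrial fusion, fell by 1.03 upon SOX2 silencing (SE 0.14, adjusted p = 0.0920, edgeR). MFN1 went from 40.4 to 21.6 TPM in KYSE140 and from 55.6 to 33.5 TPM in TE5. It lies between PIK3CA, at 0.12, and ACTL6A, at -0.23 upon the same silencing. When either scramble library was left out, 0 of all genes were called for either factor, and the values without KYSE140 scramble and without TE5 scramble were 1.73 and 2.20 for LIPH, 2.37 and 4.38 for RTP4, and -1.02 and -1.05 for MFN1. The call of RTP4 was also lost without TE5 shTP63 (adjusted p = 0.391), without scaling (0.104) and with length-scaled TPM counts (0.120), and that of MFN1 with length-scaled TPM counts (-0.76, adjusted p = 0.267).

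Of the 98 partner genes, 0 rose and 2 fell upon TP63 silencing, and 0 passed upon SOX2 silencing, in the edgeR fit. For TP63 this is 2.04% called, against 0.939% of all genes, and for SOX2 the share of all genes called was 0.145%. An unadjusted p under 0.05 was found for 26 upon TP63 silencing and 12 upon SOX2 silencing, against 3366 and 2095 of the 23438 genes tested. ABCC1, a drug exporter related to ABCC5, fell by 0.98 (SE 0.17, adjusted p = 0.0973, edgeR), from 46.9 to 22.2 TPM in TE5 and from 36.0 to 24.5 TPM in KYSE140. EIF4EBP1, which holds back eIF4F assembly, fell by 0.86 (SE 0.16, adjusted p = 0.0997, edgeR), from 66.5 to 36.8 TPM in TE5 and from 417 to 262 TPM in KYSE140. Both calls were lost without scaling (adjusted p = 0.139 for ABCC1 and 0.145 for EIF4EBP1) and with length-scaled TPM counts (0.132 for both). Without KYSE140 scramble and without TE5 scramble, where 0 of all genes were called, the values were -1.21 and -0.78 for ABCC1 and -0.90 and -0.85 for EIF4EBP1. The median of the partner genes was -0.10 upon TP63 silencing, against 0.044 over all genes tested, and -0.042 upon SOX2 silencing, against 0.0076. Values that did not pass but were the largest of their lists upon TP63 silencing included PARD6G (-1.04, SE 0.25) and SMARCE1 (-0.71, SE 0.18), and upon SOX2 silencing PARD3 (-0.76, SE 0.14) and EIF4EBP2 (-0.73, SE 0.16).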

How the data were processed

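Reads of 7 RNA-Seq libraries had been pseudoaligned by the authors to the hg19 Ensembl transcriptome with kallisto, and the deposited files give an estimated count and a TPM value for each of 196354 transcripts. The deposited estimated counts are not scaled between libraries, and depths are totals of them. Reads are not single molecules, so intervals cover counting error only. The kallisto version and the strand setting are not given in the sources used here. Other data of the study were not analysed here.

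Transcripts were matched by identifier to GENCODE 44 lifted to GRCh37 and summed to genes (182863 matched, 93.6% of counts). The unmatched transcripts held 6.31 to 6.55% of counts in each library and were left out. Levels were compared in TPM. Gene counts, rounded to whole numbers, were fitted with edgeR 4.0.16 (R 4.3.3): TMM scaling, filterByExpr, quasi-likelihood test, 6 libraries (without shCCAT1), cell line and shRNA as terms, so that line is the block of the shRNA contrasts and shRNA that of the line contrast. The 23438 genes that passed the filter were adjusted together by the Benjamini-Hochberg method at 0.1, the study's threshold. Within a line, log2((shRNA + 1)/(scramble + 1)) of TMM-normalized counts was taken where either library held 10 or more counts, with a 95% exact binomial interval of the ratio. The script was tested on simulated data. Python 3.11.15 with pandas 2.3.3, numpy 2.4.6, scipy 1.17.1 and matplotlib 3.10.9 was used, and DESeq2 1.42.0 was an alternative.

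The 10 genes, the partner lists and the markers were chosen with earlier results of these data known. Named neighbours are those past the adjusted p (the 10 largest by absolute change where more) and the 5 highest and 5 lowest line differences with at least 1 TPM in every library. Named partners are those past the adjusted p (the 10 largest where more), otherwise up to 2 largest changes per list with at least 100 counts in every library. DNAJC19, LAMP3, YEATS2, EPHB3, PLK1, ANLN, TMEM30A, TMEM30B, ABCC6 and FXR2 were named after their values had been seen. A gene that the rule names is not reported here.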

Additional observations from a re-analysis of the deposited data

Results flagged for a closer look

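For 5 pairs of values the change within a line pointed in opposite directions in TE5 and KYSE140. All are log2 values of shRNA over scramble from 1 library each, and the difference between the lines was not tested. Upon TP63 silencing, PRKCI was at -0.37 in TE5 and at 0.060 in KYSE140, ECT2 at -0.026 and 0.29, ACTL6A at -0.57 and 0.069, and EIF4G1 at -0.31 and 0.034. Upon SOX2 silencing, EIF4G1 was at -0.33 in TE5 and at 0.17 in KYSE140. SOX2 itself was at 39.6% of scramble in TE5 shSOX2 and at 76.9% in KYSE140 shSOX2.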

How the results depend on the processing

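Under every alternative run, 0 of the 10 genes passed the test for TP63 or SOX2 silencing, and FXR1, ATP11B, DCUN1D1, PRKCI, EIF4G1, ABCC5 and SENP2 kept their direction and call between lines (highest adjusted p 0.00689). The number of the 10 genes called between lines was 8, 9 without scaling beyond library size or with length-scaled TPM counts, 7 without the filter on low counts, and 7 to 9 when 1 library was left out. ECT2 passed with length-scaled TPM counts (0.33, adjusted p = 0.0488) and was at -0.041 without scaling. ACTL6A passed without scaling (-0.44, adjusted p = 0.0381). PIK3CA lost its call without the filter (adjusted p = 0.150) and without shRNA as replicate block (adjusted p = 0.118), where 7 of the 10 genes were called. Without the replicate block of cell line, 0 of the 10 genes and 0 of all genes were called for either factor. The number in some shRNA labels names a construct and not a replicate, so no other pairing was fitted.

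The medians within a line were small and changed with the scaling. Without scaling, which moved the median of all genes by 0.17 in TE5 shCCAT1 and 0.15 in TE5 shTP63, they were 0.16 in KYSE140 shTP63, -0.010 in KYSE140 shSOX2 (where 1 gene, ECT2, was then past 1.5-fold), 0.048 in TE5 shCCAT1 and 0.12 in TE5 shTP63. With median-ratio size factors the median was 0.051 in KYSE140 shTP63. With length-scaled TPM counts it was 0.12 in KYSE140 shTP63, 0.22 in KYSE140 shSOX2, -0.16 in TE5 shCCAT1 and 0.058 in TE5 shSOX2. With protein-coding transcripts alone it was 0.021 in KYSE140 shSOX2, 0.0021 in TE5 shCCAT1 and 0.051 in TE5 shTP63. Leaving out or replacing the scaling factors moves all genes of a comparison by nearly the same amount. The cause of the other changes was not tested.

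With 1 library left out, the value upon TP63 silencing changed sign for PRKCI (-0.42 to 0.096, positive without TE5 shTP63), ECT2 (-0.085 to 0.34, negative without KYSE140 shTP63), ACTL6A (-0.56 to 0.051, positive without TE5 shTP63) and EIF4G1 (-0.33 to 0.053, positive without TE5 scramble), and FXR1 was at 0.085 without scaling and 0.023 with length-scaled TPM counts. Upon SOX2 silencing it changed sign for PIK3CA (-0.0035 to 0.25, negative without TE5 shSOX2) and EIF4G1 (-0.30 to 0.086, positive without TE5 scramble, and 0.052 without TE5 shSOX2). The number of all genes called varied widely, for TP63 from 220 to 41 without scaling, 43 with length-scaled TPM counts, 1211 without the filter and 1851 with DESeq2, and for SOX2 from 34 to 13 with length-scaled TPM counts, 390 without the filter and 703 with DESeq2. When 1 library was left out, the numbers were 0 to 2129 for TP63 and 0 to 918 for SOX2, with 0 in both when a scramble library was left out.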
